A study of Rattus norvegicus with 11 samples.

Results

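Beta-defensins are small secreted peptides held together by cysteine bridges that kill bacteria and fungi. In skin and mucosa some are made at all times and others are switched on by microbes and by cytokines, and in mouse and man several also act as attractants for immune cells. The rodent genome carries them as a large family in a few clusters, and many members are known mainly from the epididymis, where they coat sperm. The members described here were selected by name, as all probes whose RefSeq accession maps to a gene symbol of Defb followed by a number. The family itself was chosen on values of these arrays, namely the detection of its probes and their difference between the sides, so that those values are given as a description. It comprised 35 probes for 35 genes among the 24684 probes of the array, with 1 spot each. The RefSeq table of the rat assembly GRCr8 lists 42 such genes, and Defb16-ps, Defb19, Defb26, Defb28, Defb34, Defb37 and Defb105a had no matched probe and were not analysed here.

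The RNA came from trigeminal ganglia (TRG), which hold the sensory neurons of the face, of male Wistar rats. Complete Freund's adjuvant (CFA), killed mycobacteria in paraffin oil, had been injected on 1 side under the skin of the whisker pad (50 µl at 1 mg/ml, under ketamine and xylazine), and the ganglia of both sides were collected on day 7. The 11 single-colour arrays analysed here held 6 ipsilateral ganglia (the CFA group, rats 1, 2, 3, 5, 6 and 8) and 5 contralateral ganglia (rats 1, 2, 3, 5 and 6), with 1 ganglion per array. The controls were thus the other side of injected animals and not untreated rats. All values below are log2 of the scanner's background-corrected signal after quantile normalisation, unless stated otherwise, and differences are CFA minus contralateral. A probe was detected on an array where the scanner software marked its spot as well above background. The study's threshold was an unadjusted p of 0.05 or less in limma with a fold change over 2.

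Arrays with the same scan time in the file headers were taken as 1 slide, which gave 5 slides scanned on 3 days. The first day held all contralateral arrays and CFA rat 1, and the later days held CFA arrays only. Contralateral ganglia made up slide 1 (rat 3) and slide 3 (rats 1 and 2), and CFA ganglia made up slide 4 (rats 2 and 3) and slide 5 (rats 5, 6 and 8). Both sides met on slide 2 alone, with CFA rat 1 beside contralateral rats 5 and 6. A difference within slide 2 is thus CFA rat 1 minus the average of contralateral rats 5 and 6, and elsewhere slide and side cannot be told apart. Between 68.9% and 82.8% of the spots of an array were detected. All 13 measured neuron markers and all 8 Schwann cell markers were detected on every array. In whole ganglia a change in cell numbers and one in RNA per cell cannot be told apart.

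To show the regulatory sequence of the members on which the results turn, the 250 bases before the start site are printed for those of them with an entry in the RefSeq promoter table (22 of the 35 members had one) and for Defb18, which lies near Defb17 in the same cluster. The sequences are from RefSeq on GRCr8, in the strand of the gene, and capitals mark matches to the motifs searched. Defb17 (chr9:28380422-28380671, minus strand) and Defb18 (chr9:28349794-28350043, minus strand) are shown as members of 1 cluster that had differences of opposite sign. The pseudogene Defb16-ps covers the whole of Defb17 and ends at the same base, so the bases printed for Defb17 border both. Defb5 (chr16:77317829-77318078, minus strand) and Defb41 (chr15:41430732-41430981, plus strand) are shown as the members past the study's threshold that were lower on the CFA side.
Defb17: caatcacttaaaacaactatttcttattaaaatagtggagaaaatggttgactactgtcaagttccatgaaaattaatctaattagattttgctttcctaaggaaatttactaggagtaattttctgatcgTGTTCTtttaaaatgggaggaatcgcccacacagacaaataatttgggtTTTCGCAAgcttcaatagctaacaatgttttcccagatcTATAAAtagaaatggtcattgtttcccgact
Defb18: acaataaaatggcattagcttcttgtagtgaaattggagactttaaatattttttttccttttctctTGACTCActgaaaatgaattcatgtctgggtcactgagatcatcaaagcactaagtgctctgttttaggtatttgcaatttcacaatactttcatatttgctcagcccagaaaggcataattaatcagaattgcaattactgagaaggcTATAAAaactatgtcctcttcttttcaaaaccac
Defb5: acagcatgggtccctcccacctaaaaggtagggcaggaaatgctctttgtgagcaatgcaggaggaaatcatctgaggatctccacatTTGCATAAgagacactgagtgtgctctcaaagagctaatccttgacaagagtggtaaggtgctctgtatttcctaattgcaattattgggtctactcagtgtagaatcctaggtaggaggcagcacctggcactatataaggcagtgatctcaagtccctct
Defb41: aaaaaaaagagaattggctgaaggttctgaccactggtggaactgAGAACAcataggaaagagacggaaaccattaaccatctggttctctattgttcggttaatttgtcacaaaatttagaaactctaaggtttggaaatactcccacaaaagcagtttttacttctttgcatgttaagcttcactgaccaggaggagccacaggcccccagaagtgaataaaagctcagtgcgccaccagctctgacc

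The TATA box (TATAAA, sense strand) began 31 bases before the start of Defb17 and 34 before that of Defb18, and 27.3% of the 22 member promoters held it against 8.06% of the 33469 promoters of the table. The androgen response half-site (AGAACA or TGTTCT, either strand) was found in 40.9% of the member promoters and in 17.5% of all. An AP-1 match (TGANTCA, either strand) was present in 13.6% of member promoters against 6.34% of all, and Defb18 carried one. The C/EBP letters (TTGCNNAA or TTNNGCAA) were in 13.6% against 9.22%, with matches in Defb17 and Defb5, and a simple NF-kB motif (either strand) was in 0 of 22 against 1.08%. An E-box (CANNTG, not capitalised above) was in 68.2% against 65.5%. These are matches of letters and not known sites. The GC content of the member promoters ranged from 32.4% to 58%, with a median of 47% against 51.2% for all promoters of the table.

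About as many beta-defensins gave a signal on every array as did not. Of the 35 members, 17 were detected on all 11 arrays, 14 on some of them and 4 on none, compared with 70.9% of all probes detected on every array and 10.4% on none. On a single array the number of detected members lay between 20 and 29. Contralateral rats 1, 2, 3, 5 and 6 had 28, 29, 27, 20 and 21 detected members, and CFA rats 1, 2, 3, 5, 6 and 8 had 22, 20, 22, 26, 26 and 22. The groups overlapped in this count, and the 3 contralateral arrays off slide 2 had the highest counts. All 6 CFA arrays detected 19 members and all 5 contralateral arrays detected 19. No member belonged to the brightest of 3 equal classes of probes by mean signal, 15 belonged to the middle class and 20 to the dimmest. Signals of different probes cannot be read as amounts of RNA.

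**Figure D1:**
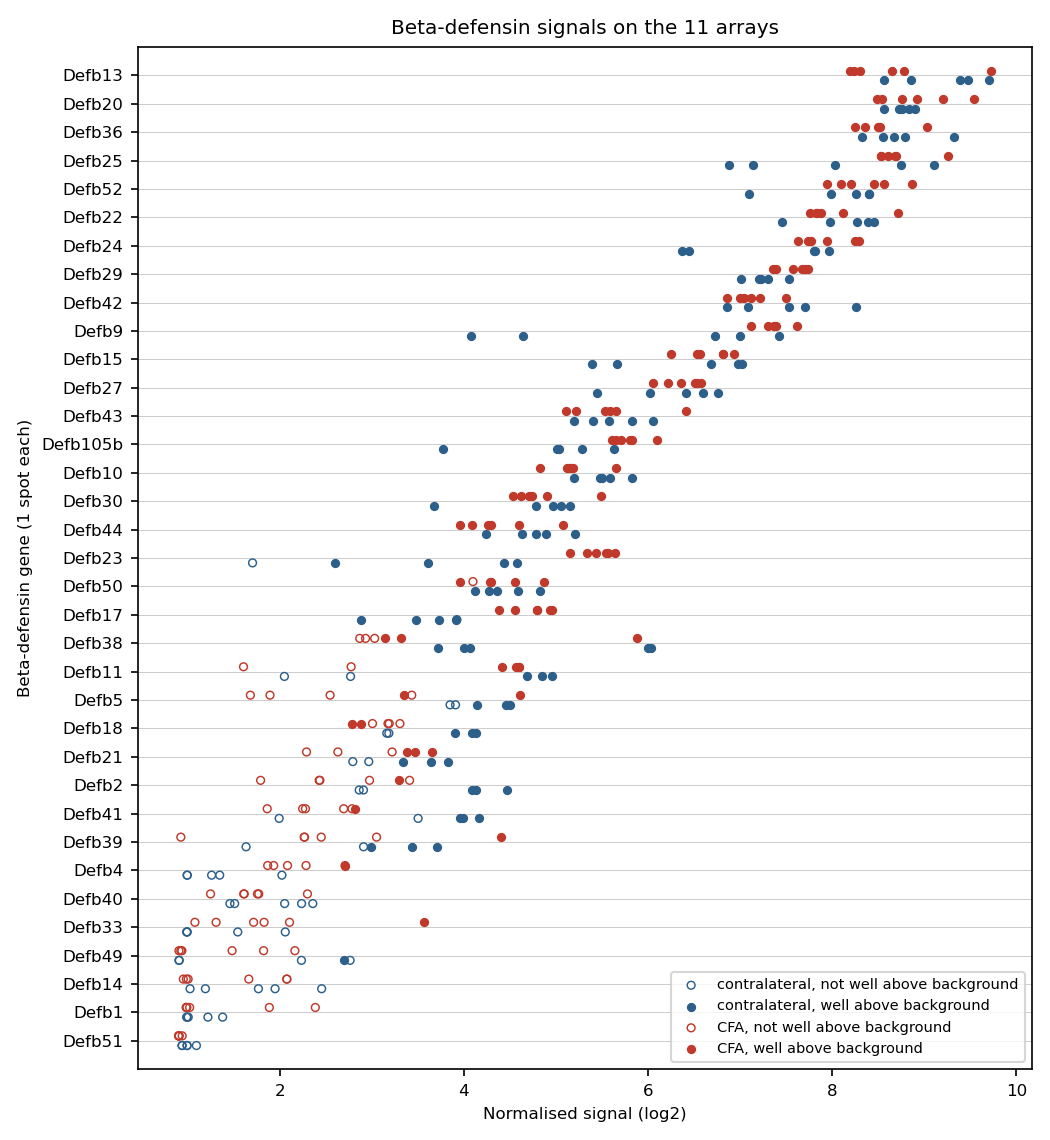
Normalised signal (log2) of the 35 beta-defensin genes on the 11 arrays, in order of their mean signal, with 1 point per array. Filled points were well above background and open points were not, and 4 genes have open points only (Defb1, Defb14, Defb40 and Defb51).

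The members best known as epithelial host defence peptides were at or near background. Defb1, the beta-defensin that epithelia of kidney and airway make without stimulation, was detected on 0 of 11 arrays, with signals from 0.98 to 2.39 on the CFA side and from 0.99 to 1.38 on the contralateral side. Defb14, whose mouse gene is the counterpart of human beta-defensin 3, was also detected on none (0.95 to 2.08 and 1.03 to 2.46). Defb4, the rat counterpart of the inducible human beta-defensin 2, was detected in 1 of 6 CFA ganglia and in 0 of 5 contralateral ones. Its CFA signal had a lowest value of 1.87, a median of 2.19 and a highest of 2.71, and contralateral rats 1, 2, 3, 5 and 6 had 0.99, 2.02, 1.26, 1.00 and 1.35. The CFA values were mostly the higher ones but the groups overlapped through rat 2. Before background correction the spot of Defb4 read 36 to 46 on the CFA arrays and 28 to 35.5 on the contralateral ones. For Defb4 and the 6 other members that 1 group or both never detected (Defb1, Defb14, Defb33, Defb40, Defb49 and Defb51) no fold is given, because the brighter group's mean did not exceed the lowest signal that counted as detected on the dimmer group's arrays (largest ratio 0.823).

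For Defb22, Defb15 and Defb42, named here for a role on sperm or in the epididymis, the signals of the sides overlapped. Defb22, listed also as the 2D6 glycoprotein and known as a sperm coat protein, was detected on all 11 arrays. Contralateral rats 1, 2, 3, 5 and 6 had 8.26, 7.97, 7.46, 8.46 and 8.39, and the CFA arrays ranged from 7.76 to 8.71 (median 7.86). The difference was -0.09 (standard error 0.22), with the CFA array of rat 1 as the highest and the contralateral array of rat 3 as the lowest. Defb15, a sperm-binding protein of the rat epididymis, was detected everywhere and had 5.67 and 5.39 in contralateral rats 1 and 2 (slide 3) and 6.68 to 7.02 in rats 3, 5 and 6, while the CFA arrays lay between 6.25 and 6.93. Its difference was 0.30 (standard error 0.31). Defb42, an epididymal gene in mouse, had a difference of -0.36 (standard error 0.23).

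At the study's threshold 3 beta-defensins were higher on the CFA side (Defb23, Defb9 and Defb17), 2 were lower (Defb41 and Defb5), and 30 did not pass. These 5 of 35 are 14.3% of the members, where 2.01% of all 24684 probes passed (1.14% higher and 0.867% lower), and 4.25% of the dimmest class. The set was proposed with values of this contrast known, so nothing is read from this share and the members carry no test of their own. With Benjamini-Hochberg adjustment over all probes in limma 0 members and 0% of all probes passed 0.05. An unadjusted limma p of 0.05 or less was reached by 11 of the 35 members (6 higher, 5 lower). Of all 24684 probes 2713 (11%) reached it, and nothing is read from the members' larger share either. With the rat as a replicate block 3 members passed (Defb23, Defb17 and Defb5), against 1.51% of all probes. None of the 5 calls held with slide as a block, where Defb39 alone of the members and 2.6% of all probes passed, or with scan day as a block, where 0 members and 1.8% of all probes passed. Over all 35 members the median difference was -0.09, beside -0.05 over all probes, with 15 members above 0 and 20 below. Just inside the fold limit lay Defb41 (-1.07) and just outside it Defb2 (-0.97).

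Defb23, a beta-defensin of the cluster on chromosome 3, had the largest difference of the family. It was detected on all 6 CFA arrays and on 4 of 5 contralateral arrays. Contralateral rats 1, 2, 3, 5 and 6 had 3.61, 2.60, 1.71, 4.43 and 4.58, and the CFA arrays had a lowest value of 5.15, a median of 5.49 and a highest of 5.64. The groups did not overlap, as was the case for 1.2% of all probes, and the contralateral values spread over a far wider range than the CFA values. The mean was 5.44 ± 0.18 (SD, n = 6) against 3.39 ± 1.23 (SD, n = 5). The difference was 2.06 (standard error 0.46), a 4.17-fold change. That the CFA side was higher in 5 of 5 rats follows from the lack of overlap. Within slide 2, where CFA rat 1 had the lowest value of its group and contralateral rats 5 and 6 the highest of theirs, the difference was 0.64. Before background correction the spot read 66 to 100 (median 87.5) on the CFA arrays and 29 to 58 (median 43) on the contralateral arrays, over a local background of 16.5 to 25. On those uncorrected values the difference was 0.77, and with normexp correction it was 0.47.

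Defb17, from the cluster on chromosome 9, was the other member without overlap between the groups. Its contralateral values were 3.48, 2.89, 3.73, 3.92 and 3.92 for rats 1, 2, 3, 5 and 6, and on the CFA arrays the lowest was 4.38, the median 4.79 and the highest 4.96. All CFA arrays were thus higher, and the smallest gap was on slide 2, where the difference was 0.46. The group means were 4.74 ± 0.22 (SD, n = 6) and 3.59 ± 0.43 (SD, n = 5), with a difference of 1.15 (standard error 0.19), a 2.22-fold change. It was detected on all CFA arrays and on 4 of 5 contralateral arrays. That it was higher on the CFA side in 5 of 5 rats follows from the lack of overlap. Without the contralateral array of rat 2 the difference was 0.97 and no longer past the fold limit, and without background correction it was 0.40. Its raw signal was 51 to 75 on the CFA arrays and 38.5 to 49 on the contralateral arrays. RefSeq places the transcribed pseudogene Defb16-ps over the same stretch as Defb17, so which of the transcripts the probe reads is not known here.

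Defb9, from the cluster on chromosome 16, was detected on all 11 arrays. On the contralateral side it had 4.64 and 4.08 in rats 1 and 2, 6.73 in rat 3, and 7.42 and 7.00 in rats 5 and 6. The CFA arrays lay close together, with a lowest value of 7.11, a median of 7.37 and a highest of 7.62. The difference of 1.39 (standard error 0.56, a 2.61-fold change) therefore came mostly from the pair of contralateral arrays on slide 3, and the groups overlapped through rat 5. The means were 7.36 ± 0.16 (SD, n = 6) and 5.98 ± 1.51 (SD, n = 5). Within slide 2 the difference was 0.40, and 4 of 5 rats were higher on the CFA side. With the rat as a replicate block it was 1.38 and not past the threshold. It also did not pass without the contralateral array of rat 1 (1.05) or of rat 2 (0.91), or without the CFA array of rat 1 (1.33). A similar pattern on slide 3, noticed after the values were seen, was found for Defb25 (7.14 and 6.88 in contralateral rats 1 and 2, 8.03 to 9.10 on the other contralateral arrays) and Defb24 (6.37 and 6.45, against 7.80 to 7.96).

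Both members that were lower on the CFA side lay near the detection limit. Defb5, from the cluster on chromosome 16, had 4.15, 4.50, 4.46, 3.91 and 3.85 in contralateral rats 1, 2, 3, 5 and 6. On the CFA arrays its lowest value was 1.68, its median 2.95 and its highest 4.61, which belonged to rat 3 and exceeded every contralateral value. The means were 2.92 ± 1.098 (SD, n = 6) and 4.17 ± 0.30 (SD, n = 5), and the difference was -1.25 (standard error 0.47), a fold of 2.38 in favour of the contralateral side. Detection was met in 2 of 6 CFA and 3 of 5 contralateral ganglia, and the CFA side was lower in 4 of 5 rats. Within slide 2 the difference was -0.45. The spot itself read 38 to 58 (median 42.5) on the CFA arrays and 42 to 52 (median 46.5) on the contralateral arrays before correction, and the uncorrected difference was -0.27.

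Defb41, an epididymal gene in mouse and a member of the cluster on chromosome 15, was detected in 1 of 6 CFA ganglia and in 3 of 5 contralateral ones. Its contralateral values were 3.99, 4.16, 3.96, 3.50 and 1.99 for rats 1, 2, 3, 5 and 6, against a lowest value of 1.86, a median of 2.49 and a highest of 2.81 on the CFA arrays. Rat 6 alone made the groups overlap. The difference was -1.07 (standard error 0.37, a fold of 2.11) and -0.05 within slide 2. With the rat as a replicate block it was -0.96 and not past the threshold, and it did not pass without the contralateral array of rat 1 (-0.96), 2 (-0.91) or 3 (-0.96), or without the CFA array of rat 8 (-0.96). Uncorrected, the spot read 34.5 to 45 (median 41.5) on the CFA arrays and 36 to 47 (median 40) on the contralateral arrays, so that the raw signals of the groups covered nearly the same range.

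**Figure D2:**
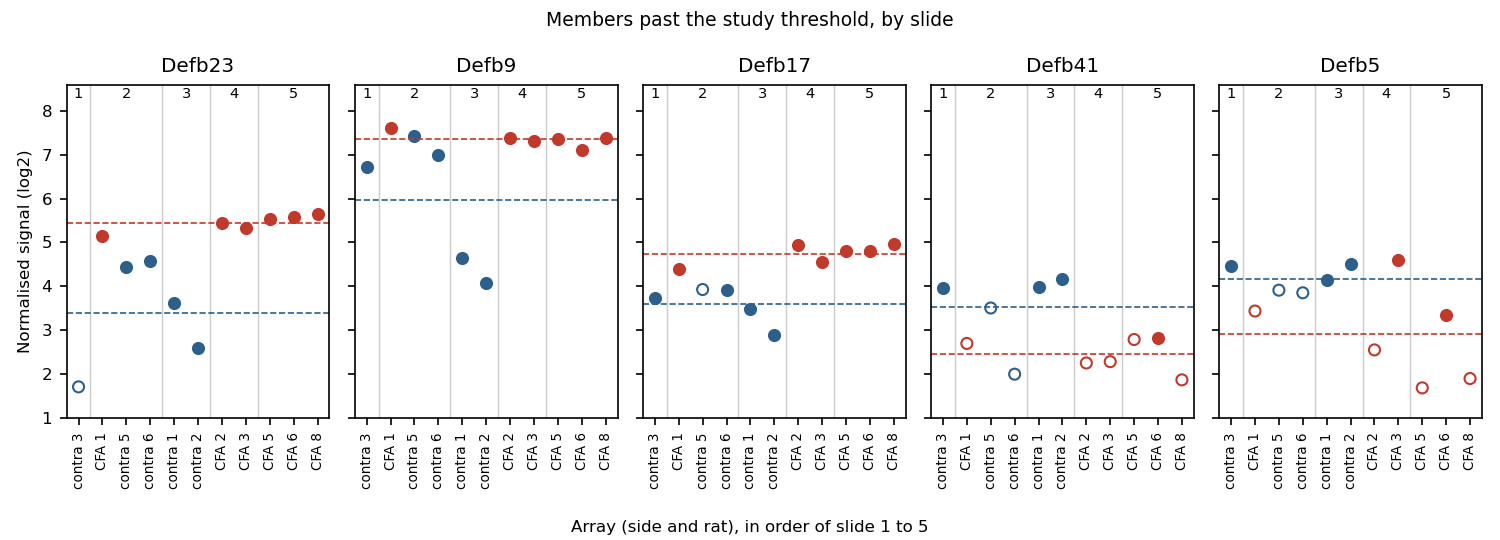
Normalised signal (log2) of the 5 members past the study's threshold on each array, in order of slide 1 to 5 (numbers at the top), with filled points well above background, open points not, and dashed lines at the means of the CFA (red) and contralateral (blue) arrays. On slide 2, the only slide with both groups, Defb23 had 5.15 on the CFA array and 4.43 and 4.58 on the contralateral arrays.

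Other members had differences of similar size that did not pass. Defb38 had the lowest difference among these, -1.23 (standard error 0.64). It had 6.03 and 6.00 in contralateral rats 5 and 6 and 5.89 in CFA rat 1, all of slide 2. On the remaining arrays it lay between 2.87 and 3.32 on the CFA side and between 3.72 and 4.07 on the contralateral side. Slide 2 was thus high for Defb38 on both sides. The difference was -0.13 within slide 2 and 1.12, of opposite sign, with scan day as a block. Both values rest on CFA rat 1 as the only CFA array. Defb2 had 4.13, 4.09, 4.47, 2.86 and 2.91 in contralateral rats 1, 2, 3, 5 and 6 and 1.79 to 3.41 (median 2.71) on the CFA arrays, a difference of -0.97 (standard error 0.38) that was 0.52, of opposite sign, within slide 2. It passed the threshold without the contralateral array of rat 5 or 6 or the CFA array of rat 1, 3 or 5, with differences from -1.18 to -1.02. Defb105b, which has the copy Defb105a in the same cluster whose transcripts the probe may share, had a difference of 0.84 (standard error 0.27), and passed the threshold with 1.01 without the contralateral array of rat 5, as did Defb25 with 1.02.

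The 3 members with the highest mean signal on the array, Defb13, Defb20 and Defb36, were detected on every array and did not pass. Defb20 had 8.89, 8.84, 8.76, 8.72 and 8.57 in contralateral rats 1, 2, 3, 5 and 6 and 8.49 to 9.54 (median 8.84) on the CFA arrays, with a difference of 0.15 (standard error 0.18). Defb36 had a difference of -0.20 (standard error 0.18), between 8.25 and 9.03 on the CFA arrays and between 8.32 and 9.32 on the contralateral ones. Defb13 lay between 8.19 and 9.73 and between 8.56 and 9.71, with a difference of -0.55 (standard error 0.30). For all 3 the CFA array of rat 1 was the highest of its group, and within slide 2 the differences were 0.89, 0.53 and 0.30 for Defb20, Defb36 and Defb13.

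The differences of the members followed the row of the array on which their spot lay. Of the 20 members in rows 1 to 266, 15 were higher on the CFA side, while all 15 members in rows 267 to 532 were lower. Over 4 equal bands of rows the median difference of the members was 0.64 (6 members), 0.20 (14), -0.21 (8) and -0.55 (7). Defb23, Defb9 and Defb17 lay in rows 145, 137 and 139, and Defb41 and Defb5 in rows 406 and 447. Single-spot probes of the dimmest class showed the same order, with medians of 0.22, -0.07, -0.17 and -0.30 over 1050, 1057, 1074 and 1081 probes. In the first band 12.3% of those dim probes passed the threshold as higher and 0% as lower, and in the last band 0.278% and 10.3%. Across the 35 members Pearson's r between row and difference was -0.66 (Spearman's rho -0.77), and across the dim single-spot probes it was -0.43. Over single-spot probes of all classes r was -0.23, and the band medians were 0.02, -0.10, -0.12 and -0.03, not in the same order. The dim class is no match for the 15 members of the middle class, Defb9 among them. The points share the same 11 arrays and are not independent, so no p is given. Within slide 2 the members' r was -0.12.

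**Figure D3:**
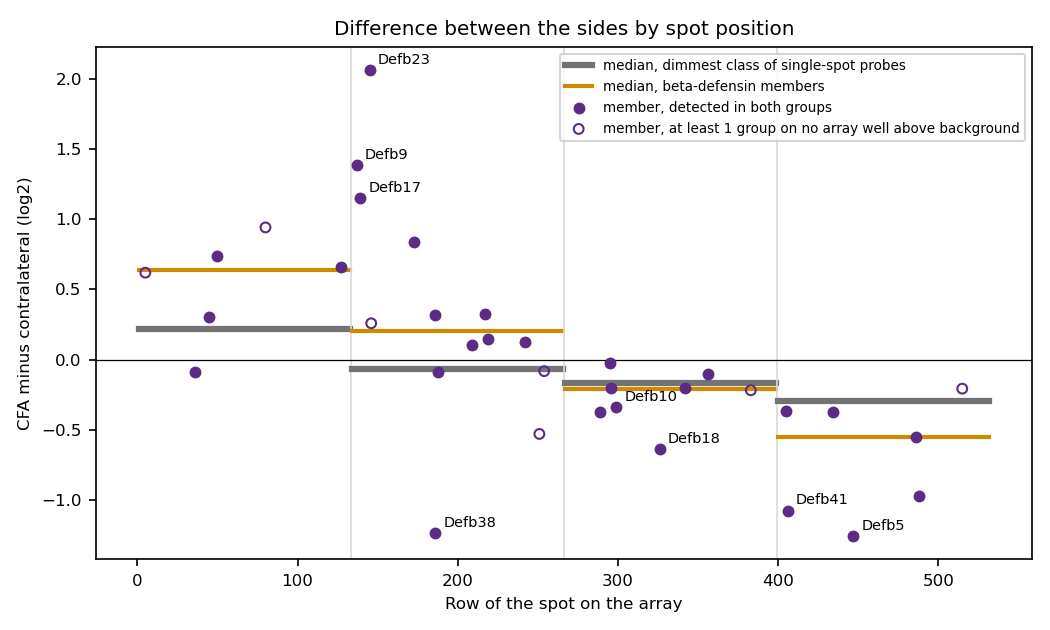
Difference between the sides (CFA minus contralateral, log2) of the 35 members against the row of their spot, with the median of the members (orange) and of the dimmest of 3 classes of single-spot probes (grey) in 4 equal bands of rows. Open points mark the 7 members that at least 1 group never detected, and every member beyond row 266 lies below 0.

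Centring each array within 20 bands of rows and 3 classes of signal, an alternative added after the pattern was seen, left Defb23 at 2.04, Defb17 at 1.13 and Defb9 at 1.30, all past the threshold, and moved Defb5 to -0.84 and Defb41 to -0.80, neither past it. The members' r between row and difference was then -0.47. How far the position of the spot contributed to the differences was not tested beyond these values.

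Neighbouring genes did not share a direction as a rule. By the gene order of GRCr8 the members fall into 4 clusters, and in each of them some members were above 0 and others below. On chromosome 3 (9 members) 6 were above 0, with a median difference of 0.15 and a range from -0.20 to 2.06. The 18 members of chromosome 16 had 7 above 0 and a range from -1.25 to 1.39, the 5 of chromosome 15 had 1 above 0 and a median of -0.36, and the 3 of chromosome 9 had 1 above 0. Of 25 pairs of members next to each other, 16 differed in sign. The pairs include Defb1, Defb4, Defb14, Defb33, Defb49 and Defb51, for which no fold is given, so their signs are uncertain. Pairs of other adjacent genes were not counted for comparison. Defb9 (1.39, row 137) stood next to Defb10 (-0.34, row 299), and Defb5 (-1.25, row 447) next to Defb4, whose spot lies in row 80. Defb17 (1.15) and Defb18 (-0.64, standard error 0.20), printed above with a TATA box at a like distance, lay in rows 139 and 326.

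Other genes of antimicrobial defence were compared with lists chosen for this family. Of 9 measured alpha-defensins, a related family that includes peptides of neutrophil granules and of intestinal Paneth cells, 0 passed the threshold in either direction. The 7 detected on every array had differences from -0.30 to 0.06. For Defa5, Defa11, Np4 and RatNP-3b the standard errors were 0.87 to 0.92, so these values do not show that the genes were unchanged. Defa8, which had the smallest p, was detected in 0 of 6 CFA ganglia and 1 of 5 contralateral ones, and no fold is given for it. Among 21 other antimicrobial proteins 1 was higher and 1 lower. Ltf, the iron-binding lactoferrin of neutrophil granules, was higher by 1.21 (standard error 0.45) and was detected in 4 of 6 CFA ganglia and 1 of 5 contralateral ones. Bpifa2, a secreted protein of salivary glands, had a difference of -2.24 (standard error 0.59) and 0.21 within slide 2. Their spots lay in rows 88 and 459. None of 7 receptors for which beta-defensins are described as ligands passed (Ccr6, Ccr2, Tlr2, Tlr4, Mc4r, Cxcr4 and Egfr, differences from -0.50 to 0.01). Of 14 cytokines, receptors and signalling genes known to induce beta-defensins 0 passed, with Myd88, the adaptor of Toll-like receptors, at the smallest p (-0.26, standard error 0.10). For Il6, Ifng, Il1a and Il1b the standard errors were 0.58 to 0.88, so their values do not show that these genes were unchanged.

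Markers of tissues that make beta-defensins were measured beside them. Of 16 epididymal genes 0 passed, 9 were detected on every array and 3 on none, and their summed log2 signal was 12.98 to 13.79 on the CFA arrays and 13.13 to 13.49 on the contralateral arrays. Spag11a, an epididymal gene of the beta-defensin region, had the smallest p of these 16. It was detected in 4 of 6 CFA ganglia and 1 of 5 contralateral ones, with its spot in row 28. Its difference was 0.88 (standard error 0.23) and -0.01 within slide 2. The median difference of the 16 genes was -0.14, and the 9 detected on every array had differences from -0.53 to 0.48. Of 10 genes of stratified epithelium 0 passed and 5 were detected on every array, with summed signals of 15.7 to 15.9 and 15.8 to 16.1. This sum came mostly from Cdh1, with a mean signal of 15.85, and the next brightest, Krt14, had 9.63. Neutrophil granule genes (11 measured, Ltf alone past the threshold) had summed signals of 12.5 to 15.7 and 12.6 to 15.3. None of these ranges separated the groups, but each sum follows its brightest probes. For the epididymal genes these were Cst12 (difference -0.46) and Adam7 (0.48). The part of these cells in the beta-defensin signal was not tested.

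The sizes of the 5 differences past the threshold depended on the settings, as the plot of settings shows. The range over all alternatives was 0.47 to 2.36 for Defb23, 0.40 to 1.75 for Defb9 and 0.25 to 1.23 for Defb17. For the lower members it was -1.46 to -0.05 (Defb41) and -1.59 to -0.13 (Defb5).

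**Figure D4:**
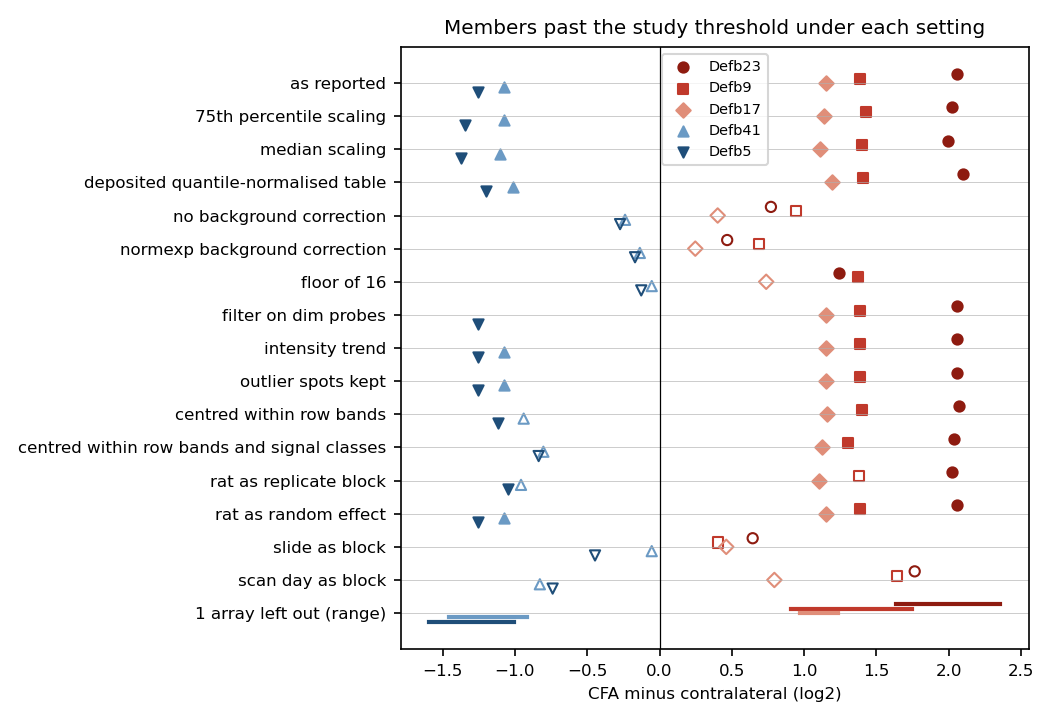
Difference between the sides (CFA minus contralateral, log2) of the 5 members past the study's threshold under each setting of the processing, with filled symbols past the threshold, open symbols not, and bars for the range when 1 array was left out. No difference changed sign, and without background correction the differences were 0.77, 0.94, 0.40, -0.24 and -0.27 for Defb23, Defb9, Defb17, Defb41 and Defb5.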

How the data were processed

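The intensity values were deposited by the authors as scanner output of single-colour arrays. Per the file headers they came from version 11.0.1.1 of Agilent's Feature Extraction, which subtracted background and detrended each array by position. The authors also deposited a table of quantile-normalised linear intensities with a median of 184.67 in every column, used as an alternative. Of 43553 spots, 1417 controls were left out, and 0 of the remaining 42136 were saturated. Processed signals were put on the log2 scale and quantile normalised, the normalisation that the paper's methods state, spots marked as outliers (1.38%) were set to missing, and spots of a probe were averaged. Groups were compared in limma 3.58.1 (R 4.3.3) over all 24684 probes without covariates, after a test on simulated data. The files hold no mean signal, so the median signal was used for the settings without background correction and with normexp (offset 50).

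Accessions were named through RefSeq (GRCr8, names only, as the arrays are annotated on an earlier assembly), and 14274 of 15323 mRNA probes matched. Full values are given for members past the study's threshold, the largest differences beside them, the highest signals and those next to the threshold, and for other members named for role or position. Of each comparison list the genes past the threshold, or that with the smallest p, are named, except 1 that is not reported here. Members and lists were chosen with earlier results of these data known.

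The labels give a rat number for each ganglion, so that equal numbers pair the sides of 1 animal. The correlation of a rat's sides, after removal of group means, was over 0.1 in 1 of 5 rats (0.13, rat 6). In the other rats it was between -0.08 and -0.01. No CFA array correlated best with the contralateral array of its own rat, so the values themselves show no sign of the pairing. The main test was unpaired because the limma test in the paper's methods is described without a pairing term, although contralateral sides served as controls. The number of arrays limits the precision. Python 3.11.15, pandas 2.3.3 and matplotlib 3.10.9 were used.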

Additional observations from a re-analysis of the deposited data

Results flagged for a closer look

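In 22 groups of arrays (11 members, 2 sides) a single array stood far from the rest of its group in 2 cases. Both cases were the CFA array of rat 1. The groups share the same arrays and the members were named by their values, so these cases are set against no rate. Defb38 had 5.89 on the CFA array of rat 1, and the next highest CFA array had 3.32. The contralateral arrays of the same slide were as high (6.03 and 6.00), and without the CFA array of rat 1 the difference was -1.71 and past the study's threshold. Defb36 had 9.03 on the CFA array of rat 1, against 8.52 for the next.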

How the results depend on the processing

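Of the 26 alternatives, 2 scalings, the deposited table, the intensity trend, the outlier spots and the rat as a random effect left the same 5 members past the study's threshold, and a filter on dim probes and centring within row bands left 4 (not Defb41). The count was 0 without background correction, 0 with normexp, 2 with a floor of 16 (Defb23 and Defb9), 3 after centring within row bands and signal classes (chosen after seeing the data), 3 with the rat as a replicate block, 1 under a slide block (Defb39) and 0 under a scan-day block, and from 3 to 8 with 1 array left out (3 without contralateral rat 1 or 2, 8 without contralateral rat 5). The members' median difference was 0.30 under the slide block and 0.32 under the scan-day block (all probes 0.03 and -0.02), and -0.09 to -0.03 with 1 array left out. Both block fits set CFA rat 1 alone against contralateral arrays, so their counts and medians are not independent of that array. Of the comparison lists 3 genes passed (Ltf and Bpifa2 among them), against 1 with normexp, 1 with the floor, 7 under the slide block and 1 to 6 with 1 array left out (1 without contralateral rat 1, 5 without contralateral rat 6, 6 without CFA rat 1). Detection on every array held for 17 members, and for 17 to 18 with 1 array left out, 20 on at least 9 arrays and 23 by the scanner's weaker flag. Of all probes 496 passed, against 47 without background correction, 16 with normexp, 139 with the floor, 309 after centring by rows and classes, and 774, 796 and 328 when contralateral rats 5, 6 and 1 were left out. The causes were not tested. Median scaling moved the median of all probes to -0.10. At an adjusted p of 0.05, Defb23 passed with the floor (0.0455, and from there to 0.916 over the other alternatives) and Defb17 without the CFA array of rat 1 (0.0342, likewise to 0.916). Of all probes 3 passed it with the floor and 121 without the CFA array of rat 1, so nothing is read from these 2 members. The dim signals of 20 members limit all of these values.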
